A study of Mus musculus with 23 samples.

Results

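Tumours raised by CRISPR-Cas9 disruption of Ptch1 were set against healthy adult mouse cerebellum, gene by gene. The comparison holds 7 of the 23 arrays of the series, chosen by sample title: 3 CRISPR-Ptch1 tumours and 4 adult cerebella. The array reads 18194 genes, each represented by 1 probe set, the one with the highest mean over the 23 arrays among those annotated to a single gene symbol. Of the tumours, 2 (EP tumours 1 and 2) grew in wild-type CD1 mice after in utero electroporation of the cerebellar neuroepithelium with a pX330 plasmid carrying Cas9 and a guide against the second exon of Ptch1. The other (TF tumour) grew in a Trp53-/- mouse whose cerebellum was transfected as a neonate with the same kind of plasmid, complexed with polyethylenimine. The labels give strain CD1 for all 7 samples, whereas the methods of the study give a C57BL/6N background for the transfected animals. Genotype, route, age at delivery, strain and any plasmids delivered alongside cannot be told apart with 1 TF array. Each tumour arose from cells edited in place, so the edited alleles can differ between tumours and between cells of 1 tumour. Per its methods, the study co-electroporated a luciferase transposon with a transposase plasmid and kept only electroporated animals that showed luciferase signal. The adult cerebella (1 to 4) were normal tissue of unedited CD1 mice. The other 16 arrays, used here to estimate the spread and in a few direct contrasts, are 5 MERP tumours, 4 tumours of Ptch1+/- mice, 4 GTML tumours and 3 preparations of granule neuron precursors (GNPs) of postnatal days 4 to 7.

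Ptch1 is the receptor that holds the Sonic hedgehog (SHH) pathway off. When SHH binds it, or when it is lost, the membrane protein SMO is released and the GLI transcription factors switch on their target genes. In the postnatal cerebellum this pathway drives the division of granule neuron precursors in the external granular layer, and these cells then leave the cell cycle, migrate inwards and mature into the granule neurons that make up most neurons of the adult cerebellum. Medulloblastoma of the SHH group is thought to arise when such precursors go on dividing. Adult cerebellum holds no external granular layer, so each difference below sets a tumour against mature tissue that also contains Purkinje cells, interneurons, glia and vessels.

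All levels below are log2 expression values, and 1 unit is a doubling. The values of the tumours are given in the order EP 1, EP 2, TF, and those of the adult cerebella in the order 1 to 4. A difference is the tumour mean minus the adult mean with its standard error (SE) from a limma model fitted to all 23 arrays, and a gene was called changed where the p-value adjusted over all 18194 genes (Benjamini-Hochberg) was under 0.05. By that rule 47.5% of all genes were changed, 26.4% higher and 21.1% lower in the CRISPR-Ptch1 tumours, and the median difference over all genes was 0.02. The groups did not overlap in either direction in 60.7% of all genes, 32.5% with the tumours above and 28.2% with the tumours below. These shares are the background for every count below.

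The array medians over all 45101 probe sets lay within 5.999 to 6.17 for all 23 arrays, and the lower quartile of an array was 4.42 to 4.44 in the tumours and 4.46 to 4.49 in the adult cerebella. A level near that quartile cannot be told from background here, so a difference that involves one is a lower limit. Over the annotated genes the median level was 7.46 to 7.55 in the tumours, against 7.33 to 7.39 in the adult cerebella. The gap between 3′ and 5′ probe sets of the control transcripts, a sign of RNA or labelling quality, was 0.191 to 0.234 in the tumours, against 0.475 to 0.540 in the adult cerebella, with no overlap, and its part in the differences was not tested. No array shared its values with another. The number of arrays limits the precision, and as the labels give no batch, age or litter, a p-value measures only the spread between these samples. In bulk tissue, fewer cells of a type and less RNA per cell cannot be told apart.

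Ptch1 itself was measured at 13.09, 12.78 and 13.07 in the CRISPR-Ptch1 tumours, against 11.98, 11.96, 11.997 and 11.88 in the adult cerebella. Every tumour stood above every adult cerebellum, and the difference was 1.03 ± 0.21 (adjusted p = 0.000336), a 2.04-fold higher level. The other probe sets of the gene, both dimmer, showed 0.26 and 0.17, and the call was lost with the mean of the probe sets (0.49, adjusted p = 0.0554) and with the most variable one (0.26, adjusted p = 0.706). The labels do not give the edited alleles of these tumours and Ptch1 is also a target of the pathway it restrains, so these levels do not check the edit. The other membrane components moved in different directions. Of 8 receptors and co-receptors measured, 5 were higher and 1 lower, and 2 did not pass. Smo, the signal transducer that PTCH1 restrains, was higher by 2.09 ± 0.27, the decoy receptor Hhip by 2.19 ± 0.53, the co-receptor Boc by 1.12 ± 0.21, and Disp1, which releases lipid-modified ligand, by 0.93 ± 0.17. Cdon, a co-receptor related to Boc, was the lower one, with 7.78, 7.34 and 5.91 in the CRISPR-Ptch1 tumours, against 9.27, 9.002, 9.01 and 9.18 in the adult cerebella. The TF tumour was lowest, and none of the tumours reached the adult range. The co-receptor Gas1 had a difference of 0.22 ± 0.17, with overlapping groups.

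The ligand Shh, which Purkinje cells make, was at 5.20, 5.90 and 5.38 in the CRISPR-Ptch1 tumours, against 8.90, 8.87, 8.79 and 8.75 in the adult cerebella. It was 10.1-fold lower in the tumours (-3.33 ± 0.20, adjusted p = 1.29e-11), all 3 of which lay far below the adult cerebella. Neither Dhh (0.01 ± 0.12) nor Ihh (-0.11 ± 0.16), the other hedgehog ligands, passed the test. Downstream, 4 of 6 GLI factors and regulators were higher. Gli1, the activator that the pathway itself induces, stood at 9.47, 9.01 and 10.04 in the CRISPR-Ptch1 tumours, against 6.23, 5.96, 6.09 and 6.01 in the adult cerebella, a difference of 3.43 ± 0.24. Gli2, the main activator in granule precursors, differed by 3.86 ± 0.21 (14.5-fold). Sufu and Kif7, which restrain the GLI proteins, were also higher, by 2.50 ± 0.20 and 0.97 ± 0.19. Gli3, whose processed form represses targets, lay above the adult range in each tumour (7.17, 8.01 and 7.65, against 6.89 to 7.09) without passing the test (0.64 ± 0.38, adjusted p = 0.185). Spop, an adaptor of the ubiquitin ligase that degrades GLI proteins, was the lower one at -1.28 ± 0.20.

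Among 16 SHH target genes, 14 were higher, none was lower and 2 did not pass, and the list's median difference was 2.55 beside 0.02 over all genes. Mycn, the MYC family member that drives precursor division, had 12.37, 12.07 and 12.57 in the CRISPR-Ptch1 tumours, against 6.57, 7.13, 6.78 and 7.05 in the adult cerebella, a 43.9-fold difference (5.46 ± 0.21). Its probe sets did not move alike: another showed 2.57 and a dim one -0.11. Ccnd1, a cyclin of the first gap phase, had 12.11, 11.86 and 12.77 in the CRISPR-Ptch1 tumours, against 9.46, 9.47, 9.22 and 9.29 in the adult cerebella, a difference of 2.89 ± 0.21. Sfrp1, a secreted WNT antagonist, differed by 4.76 ± 0.39 (27.1-fold) and was highest in the TF tumour. All 3 tumours lay above all 4 adult cerebella in every one of the 14 called targets. Foxm1 (0.74 ± 0.12) and Bcl2 (0.48 ± 0.16) had the smallest called differences of the list, although other probe sets of Foxm1 showed 2.11, 1.235 and, for a dim one, 0.27. Eya1 (-0.10 ± 0.47) and Igf2 (-0.24 ± 0.77), a growth factor induced by the pathway in precursors, did not pass. For Igf2 the tumours themselves were spread over 9.48, 8.40 and 11.17, with the EP tumours below and TF above the adult range of 9.84 to 10.06. Pdlim3, a muscle-type adaptor protein used as a marker of the SHH group, was at 7.25, 7.16 and 10.92 in the CRISPR-Ptch1 tumours, against 5.84, 6.74, 6.21 and 6.15 in the adult cerebella. Its difference of 2.21 ± 0.66 rested largely on the TF tumour. Myc, not a member of that list, was higher by 3.85 ± 0.32.

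**Figure D1:**
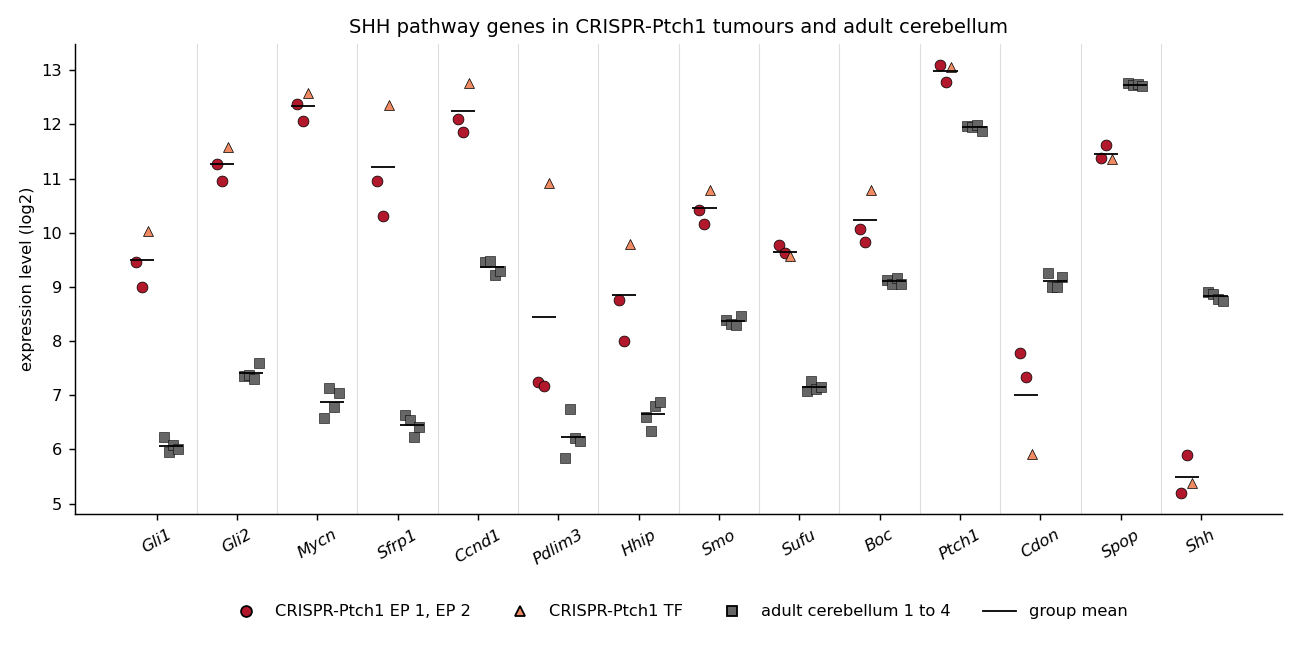
Levels (log2, vertical axis) of 14 genes of the SHH pathway, for the 3 CRISPR-Ptch1 tumours (left of each pair, circles for EP 1 and EP 2, triangle for TF) and the 4 adult cerebella (right of each pair, grey squares), with horizontal bars at the group means. The receptors, GLI factors and targets on the left are higher in all tumours, whereas Cdon, Spop and Shh on the right are lower in all of them.

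The machinery of DNA replication and mitosis was higher almost throughout. Of 31 kinetochore and spindle genes, 31 were higher, with a median difference of 4.94, and the origin and helicase genes (19 of 20, median 3.49), replication fork genes (18 of 18, median 2.47), nucleotide synthesis genes (12 of 12, median 1.71) and cyclins and cyclin-dependent kinases (13 of 14, median 2.98) followed. Spc25, a subunit of the NDC80 complex that ties microtubules to kinetochores, had 11.18, 11.26 and 11.20 in the CRISPR-Ptch1 tumours, against 4.73, 5.14, 4.78 and 4.86 in the adult cerebella. The tumours lay 81.0-fold above the adult mean, with a range among them of 0.08. Kif11, the motor that separates spindle poles, had 10.14, 9.90 and 10.53 in the CRISPR-Ptch1 tumours, against 3.74, 4.61, 3.97 and 4.24 in the adult cerebella. Cdc20, which activates the anaphase-promoting complex, had 12.18, 12.17 and 12.44 in the CRISPR-Ptch1 tumours, against 8.26 to 8.32 in the adult cerebella, a difference of 3.97 ± 0.14. The kinases Aurka (4.85 ± 0.13) and Ttk (5.69 ± 0.19), which act in spindle assembly and its checkpoint, were higher in each tumour too. Anln, a cleavage furrow protein that oligodendrocytes also make, had the smallest difference of the list (0.80 ± 0.17), and its second probe set went the other way (-0.97).

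Mcm6, a subunit of the replicative helicase, stood at 11.94, 11.71 and 12.38 in the CRISPR-Ptch1 tumours, against 6.25, 6.60, 6.36 and 6.40 in the adult cerebella, a 48.8-fold difference. Cdc6, which loads that helicase, differed by 5.53 ± 0.19 against an adult level below the array quartile, and Rrm2, the small subunit of ribonucleotide reductase, by 5.98 ± 0.18. Cdk1, the mitotic kinase, and Cdk6, a partner of the D cyclins, differed by 6.29 ± 0.16 and 6.33 ± 0.47. Cdk6 varied more between tumours (11.48, 11.24 and 12.49) than Cdk1 (11.19, 11.20 and 11.31). Ccne1, a cyclin of the S-phase entry, did not differ beyond the spread (-0.13 ± 0.16) whereas Ccne2 was higher (1.04 ± 0.17). The smallest difference among the fork genes was that of Rpa1 (12.04 to 12.29 in the tumours, against 11.69 to 11.73), a subunit of the single-strand binding protein.

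Promoters of these genes carry short elements known from cell cycle genes, and 6 of them are printed because they show such elements beside the start of genes that differed by 3.97 to 6.34. Each is the 100 bases before the transcription start (RefSeq, GRCm38.p6), 5′ to 3′ on the strand of the gene, and capitals mark matches on either strand to CCAAT, the box bound by NF-Y, to TTTGAA, the cell cycle genes homology region (CHR), or to TTGGCGC, a form of the E2F site. Cdc20 lies at chr4:118437344-118437443, minus strand. Kif11 lies at chr19:37376282-37376381, plus strand. Aurka lies at chr2:172370571-172370670, minus strand. Spc25 lies at chr2:69206214-69206313, minus strand. Ttk lies at chr9:83834589-83834688, plus strand. Mcm6 lies at chr1:128359706-128359805, minus strand.
Cdc20: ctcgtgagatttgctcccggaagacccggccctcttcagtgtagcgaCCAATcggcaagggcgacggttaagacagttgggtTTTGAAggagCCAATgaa
Kif11: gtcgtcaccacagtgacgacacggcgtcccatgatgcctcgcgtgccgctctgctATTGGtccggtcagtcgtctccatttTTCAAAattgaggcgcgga
Aurka: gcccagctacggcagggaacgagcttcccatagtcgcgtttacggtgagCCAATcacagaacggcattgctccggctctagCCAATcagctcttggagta
Spc25: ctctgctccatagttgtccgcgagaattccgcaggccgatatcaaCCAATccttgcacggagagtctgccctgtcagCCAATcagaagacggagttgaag
Ttk: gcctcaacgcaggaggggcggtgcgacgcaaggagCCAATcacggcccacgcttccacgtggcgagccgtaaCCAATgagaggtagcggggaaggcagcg
Mcm6: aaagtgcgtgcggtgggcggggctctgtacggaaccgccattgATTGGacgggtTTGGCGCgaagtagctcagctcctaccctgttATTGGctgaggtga
Both Aurka and Spc25 hold a pair of CCAAT boxes whose first bases are 32 bases apart, Ttk a pair 37 apart, Mcm6 a pair 43 apart and Cdc20 a pair 45 apart. In the 250 bases before the start, on either strand, CCAAT stood in 22 of 30 (73.3%) promoters of the kinetochore and spindle genes and 12 of 18 (66.7%) of the origin and helicase genes, beside 33.9% of all 32851 promoters. The shares were 2 of 12 (16.7%) for the SHH targets, 5 of 23 (21.7%) for the voltage-gated channels and 5 of 12 (41.7%) for the myelin genes. TTTGAA was found in 6 of 30 (20%) kinetochore and spindle promoters and in 16% of all. The E2F form TTCCCGC stood in 5 of 18 (27.8%) origin and helicase promoters beside 3.82% of all, and TTGGCGC, which can overlap a reverse CCAAT box, in 2 of 18 (11.1%) beside 1.97%. The core CCACCCA of the GLI site was found in 0 of 12 (0.0%) SHH target promoters and in 8.11% of all. Promoters were matched by symbol for 26 of 31 kinetochore, 15 of 20 origin, 9 of 16 SHH target, 17 of 21 channel and 10 of 12 myelin genes, some with several starts. A match is a description of the letters and not a binding site.

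The 12 genes with the largest increases among those without overlap were mostly genes of division. They were Mki67 (7.77 ± 0.27), Ube2c (7.22 ± 0.15), Top2a (7.06 ± 0.21), Cdca5 (7.05 ± 0.21), Birc5 (6.85 ± 0.22), Nusap1 (6.73 ± 0.15) and Cenpf (6.53 ± 0.25), which act in or mark mitosis, Sfrp2 (6.63 ± 0.35), the progenitor factors Atoh1 and Insm1 (6.66 ± 0.30), the chemokine receptor Cxcr4 (6.48 ± 0.38) and Tox3 (6.71 ± 0.18), a nuclear protein. The 12 largest decreases were those of Ermn (-5.25 ± 0.56) and Mobp (-4.79 ± 1.07), made by myelinating oligodendrocytes, Ppp1r17 (-4.90 ± 0.64) and Rgs8 (-4.82 ± 0.45), made by Purkinje cells, the neurofilament genes Nefl (-4.99 ± 0.60) and Nefh (-4.89 ± 0.49), Etnppl (-4.78 ± 0.27), an enzyme of astrocytes, Crtam (-5.02 ± 0.35), Nrk (-4.85 ± 0.31), Spock3 (-4.83 ± 0.40), Snhg11 (-4.79 ± 0.24) and Gm19439 (-4.87 ± 0.15). Rgs8 was at 7.57, 9.09 and 5.91 in the CRISPR-Ptch1 tumours, against 12.09 to 12.48 in the adult cerebella. Of the genes that the study itself names, Pcna, the sliding clamp of replication, was higher (2.25 ± 0.15), and Ctnnb1 (0.12 ± 0.09), which encodes β-catenin, and Nf1 (0.07 ± 0.16), a brake on RAS, did not pass.

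Inhibitors of the cell cycle went in both directions. Of 7 CDK inhibitors, 4 were higher and 1 lower, and 2 did not pass. Cdkn2a, which encodes the tumour suppressors p16 and p19ARF, had 7.26, 8.36 and 10.22 in the CRISPR-Ptch1 tumours, against 4.69, 4.60, 4.15 and 4.39 in the adult cerebella. It was near background in the adult cerebella and highest in the TF tumour of the Trp53-/- mouse, and the difference was 4.16 ± 0.74. Cdkn2c (p18), which granule precursors use to leave the cycle, was at 10.86, 10.92 and 10.91 in the CRISPR-Ptch1 tumours, against 7.36 to 7.65 in the adult cerebella. Cdkn1b (p27), another brake on precursor division, did not pass (0.10 ± 0.13). Cdkn1a (p21), the target through which p53 stops the cycle, was lower (-0.82 ± 0.33), with 8.40, 8.82 and 9.17 in the tumours, against 9.48 to 9.88 in the adult cerebella. Its call was lost without EP 1 (-0.62, adjusted p = 0.193), without EP 2 (adjusted p = 0.0821) and whichever of the cerebella was left out (adjusted p = 0.0559 to 0.102). Among 13 E2F and pocket protein genes 10 were higher, led by the repressors E2f7 (4.64 ± 0.20) and E2f8 (4.40 ± 0.19), and E2f4, the E2F of quiescent cells, was the lower one (-0.26 ± 0.09).

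Of 19 genes of homologous recombination and the Fanconi pathway, 18 were higher (median 2.36). They included the nuclease Exo1 (5.40 ± 0.18), the checkpoint kinase Chek1 (5.05 ± 0.16) and Brca1 (4.53 ± 0.15), which stood at 9.87, 9.74 and 10.06 in the CRISPR-Ptch1 tumours, against 5.21 to 5.43 in the adult cerebella. Rmi1, a partner of the BLM helicase, did not pass (-0.23 ± 0.16). Targets of p53 split. Of 17 measured, 5 were higher, 7 were lower and 5 did not pass. The death receptor Eda2r had 9.32, 9.11 and 8.88 in the CRISPR-Ptch1 tumours, against 4.18, 3.66, 3.99 and 4.36 in the adult cerebella, a 33.3-fold difference. The BH3-only protein Pmaip1 (NOXA) was higher by 3.25 ± 0.37. Perp (-1.74 ± 0.33), a membrane protein that p53 induces in dying cells, Phlda3 (-0.71 ± 0.21), an inhibitor of AKT, and Sesn1 (-0.54 ± 0.11) were lower. Mdm2, the ubiquitin ligase of p53, did not pass (0.16 ± 0.12). The other higher targets were Trp53inp1 (1.40 ± 0.16) and Bbc3 (0.51 ± 0.16, PUMA), both promoters of cell death, and the death receptor Tnfrsf10b, which was at background (0.28 ± 0.11). For Eda2r, Pmaip1, Perp and Mdm2 no difference between the EP tumours and TF passed the test, and Trp53 itself was not analysed here.

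In the BCL2 family, which sets the threshold of mitochondrial cell death, 9 of 14 were higher and 1 was lower. Most of the members measured are death promoters, so their number among the higher ones is not a result of its own. Some death promoters of the list differed by only -0.08 to 0.27. Among the higher ones beside Pmaip1, Bid was at 8.15, 8.17 and 7.86 in the CRISPR-Ptch1 tumours, against 5.12 to 5.44 in the adult cerebella (2.84 ± 0.21). Bok differed by 2.34 ± 0.16, Bcl2l11 (BIM) by 1.56 ± 0.21 and Bak1 by 1.09 ± 0.24. The survival proteins Mcl1 (0.60 ± 0.18) and Bcl2 (0.48 ± 0.16) were also higher. Another Mcl1 probe set, almost as bright, showed 1.98 and a dimmer one 1.87, while the others showed 0.516 to 0.695. Bcl2 lost its call with the mean of its probe sets (0.20, adjusted p = 0.398). It also did so with each array centred on the median of its genes (0.315, adjusted p = 0.167). Bcl2l2 (BCL-W), a survival protein of neurons, was lower (-1.48 ± 0.48), and Bcl2l1 (BCL-XL) missed the threshold (-0.48 ± 0.20, adjusted p = 0.0592).

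Of 17 genes of Polycomb repressive complex 2 (PRC2) and DNA methylation, 11 were higher and 1 was lower (median 0.59). Uhrf1, which brings the maintenance methyltransferase to newly made DNA, had 11.19, 11.24 and 11.20 in the CRISPR-Ptch1 tumours, against 5.15, 5.67, 5.53 and 5.67 in the adult cerebella, a 52.1-fold difference. The remodeller Hells (5.53 ± 0.17) and the methyltransferase Dnmt1 (1.60 ± 0.13) were higher with it, whereas the de novo methyltransferase Dnmt3a had -0.29 ± 0.17. Ezh2, the PRC2 methyltransferase of dividing cells, was at 11.44, 11.45 and 11.80 in the CRISPR-Ptch1 tumours, against 7.62 to 7.93 in the adult cerebella (3.79 ± 0.15). Ezh1, its counterpart in resting cells, was the lower one, at 8.36, 8.61 and 8.14 in the CRISPR-Ptch1 tumours, against 9.29 to 9.75 in the adult cerebella (-1.22 ± 0.21). The high mobility group protein Hmgb2 differed by 5.18 ± 0.14 and Hmgb3 by 3.54 ± 0.13, while Hmga2 had -0.05 ± 0.18 at a low level in both groups. In that list 8 of 10 were higher.

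The BAF chromatin remodelling complex exchanges subunits when neural progenitors become neurons. Of 18 subunits 11 were higher and 2 lower. The progenitor subunits Actl6a (2.45 ± 0.16), Phf10 (1.42 ± 0.21) and Ss18 (1.23 ± 0.11) were higher in the tumours, although for Phf10 and Ss18 a dimmer probe set went the other way. The neuronal counterparts were not lower by the test: Actl6b had -0.28 ± 0.29, Dpf1 -0.16 ± 0.19 and Ss18l1 -0.14 ± 0.19. Dpf3, another neuronal subunit (-0.42 ± 0.12), and the ATPase Smarca2 (-0.65 ± 0.26) were the lower ones. Smarca2 lost its call whichever of the 7 arrays was left out (adjusted p = 0.0556 to 0.109), and Dpf3 without EP 1 (-0.33, adjusted p = 0.0534). Among the 15 pairs of progenitor and neuronal or adult forms that were compared, the progenitor form was higher in 12, the neuronal form lower in 9, and both held in 6. In no pair was the progenitor form lower and the other form higher. In the remaining pairs, the splicing regulators Ptbp1 and Ptbp2 were both higher (Ptbp2 by 0.72 ± 0.13, with a dimmer probe set at -0.81), the GABA receptor subunits Gabra2 and Gabra6 both lower (Gabra6, of mature granule cells, at -4.07 ± 0.62), and the methyltransferase Dnmt3b was higher (1.23 ± 0.23) beside Dnmt3a, and Cdk1 beside the neuronal kinase Cdk5 (-0.17 ± 0.12, not passed). Differences are compared within each gene, since levels of different probe sets cannot be set against each other.

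The 6 pairs in which both members changed came from different systems. Besides Ezh2 and Ezh1 they were the sodium channels Scn3a, the fetal form, and Scn1a, the adult form. Scn3a had 7.85, 7.88 and 6.30 in the CRISPR-Ptch1 tumours, against 4.26, 4.40, 4.50 and 4.53 in the adult cerebella, whereas Scn1a had 6.68, 7.94 and 6.18 in the CRISPR-Ptch1 tumours, against 11.25, 11.10, 11.04 and 10.93 in the adult cerebella. Both the rise and the fall held in each of the 3 tumours, with the EP tumours higher than the TF tumour for both. Hexokinase 2 (Hk2, 3.46 ± 0.19) and hexokinase 1 (Hk1, -1.67 ± 0.33) formed another pair, as did the lactate dehydrogenase subunits Ldha (0.55 ± 0.18) and Ldhb (-1.59 ± 0.22). In the cytoskeleton, Tubb5 (1.89 ± 0.10) and Tubb4a (-1.81 ± 0.23), which encode β-tubulins, and the stathmins Stmn1 (1.18 ± 0.09) and Stmn3 (-1.09 ± 0.13) completed the 6.

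**Figure D2:**
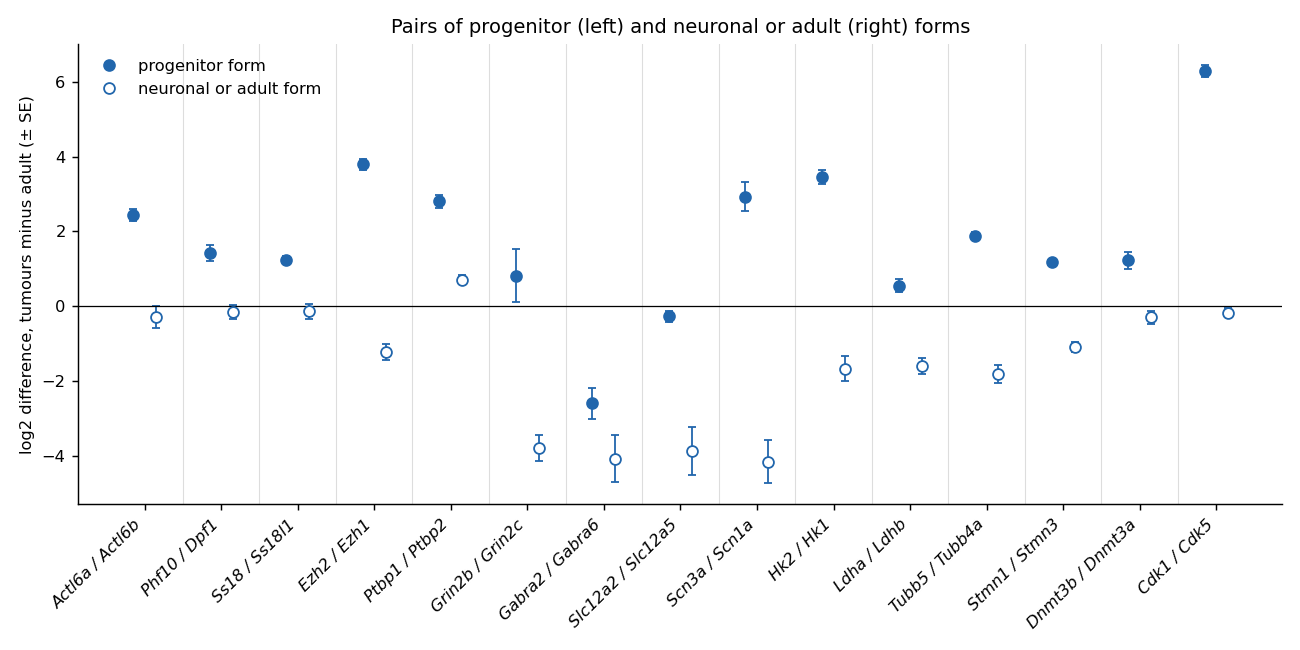
Log2 difference, CRISPR-Ptch1 tumours minus adult cerebellum (vertical axis, error bars ± SE of the model over 3 tumours and 4 cerebella), for 15 pairs of a progenitor form (left, filled) and a neuronal or adult form (right, open). The progenitor form lies above 0 with a passed test in 12 pairs and the neuronal form below 0 in 9.

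Of 22 transcription factors of the granule lineage, 15 were higher, 3 lower and 4 did not pass. Beyond Atoh1, the factor that specifies the lineage (6.74 ± 0.29), the homeobox factor Barhl1 was at 9.49, 9.44 and 9.59 in the CRISPR-Ptch1 tumours, against 5.48 to 5.98 in the adult cerebella (3.81 ± 0.21), and Nfia (1.42 ± 0.23), Nfib (1.91 ± 0.23) and Meis1 (1.70 ± 0.13) were higher. Pax6, present in dividing and in migrating granule cells, differed by 0.84 ± 0.17. Neurod2 (-1.59 ± 0.29), a factor of maturing neurons, Meis2 (-1.52 ± 0.25) and Zic2 (-0.63 ± 0.20) were lower, and Zic1, which granule neurons keep for life, had -0.27 ± 0.33. Neurod1, which granule cells switch on as they leave the cycle, was at 13.71, 13.91 and 11.91 in the CRISPR-Ptch1 tumours, against 13.82, 13.79, 13.87 and 13.81 in the adult cerebella. Both EP tumours lay close to the adult range and the TF tumour far below it. Of 14 factors of other cerebellar lineages, 4 were lower, a share near the background of 21.1%, 2 were higher and 8 did not pass. Tfap2b, a factor of inhibitory interneurons, was at 4.83, 6.19 and 4.53 in the CRISPR-Ptch1 tumours, against 9.46 to 9.57 in the adult cerebella (-4.33 ± 0.32), Lhx5 differed by -2.44 ± 0.15, and Eomes, the marker of unipolar brush cells, by -2.18 ± 0.44. Ptf1a, which specifies the GABAergic lineages, stood at background in all 7 arrays (3.38 to 3.82 in the tumours, against 3.53 to 3.77). Foxp2 was one of the 2 higher ones, at 1.55 ± 0.28. Dlx1 was the other, through EP tumour 1 alone (6.20, 4.11 and 3.72, against 3.48 to 3.90).

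Among the SOX factors, 6 of 10 were higher and none was lower. Sox11 and Sox4, which act in young neurons, were the most changed. Sox11 had 12.87, 13.05 and 11.82 in the CRISPR-Ptch1 tumours, against 6.70, 7.63, 6.90 and 6.95 in the adult cerebella, a 46.3-fold difference, and Sox4 differed by 3.70 ± 0.13. Sox2, a stem cell and glial factor, had 0.15 ± 0.74 with 9.45, 9.34 and 10.39 in the tumours, against an adult range of 9.47 to 9.72. In the Notch pathway 9 of 14 were higher and 1 was lower. The ligand Jag1 was at 10.16, 9.43 and 10.71 in the CRISPR-Ptch1 tumours, against 7.02 to 7.08 in the adult cerebella (3.05 ± 0.28), and the effectors Hey1 (2.14 ± 0.19), Hes5 (2.30 ± 0.40) and Nrarp (2.003 ± 0.26) were higher, whereas the receptors Notch1 (0.18 ± 0.33) and Notch3 (0.05 ± 0.20) and the ligand Dll1 (0.05 ± 0.37) did not pass. Dll3, an inhibitory ligand of the family, was at 7.77, 7.11 and 11.38 in the CRISPR-Ptch1 tumours, against 5.36, 4.93, 5.60 and 5.53 in the adult cerebella, above the adult cerebella in each tumour but by far the most in TF. Hey2, an effector known best from vessels, was lower (-0.64 ± 0.22).

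BMP signals, which stop precursor division, gave no single direction: of 17 BMP pathway and ID genes 4 were higher, 6 lower and 7 did not pass. The ligand Bmp4 (-0.89 ± 0.15), the receptor Bmpr1b (-1.33 ± 0.32) and the pathway's feedback inhibitor Smad7 (-0.96 ± 0.15) were lower, whereas the receptor Bmpr1a (0.48 ± 0.14) and the signal transducers Smad1 (0.58 ± 0.12) and Smad5 (0.75 ± 0.16) were higher. Id4 differed by -2.35 ± 0.83 and Id3 by 0.80 ± 0.28, and Id1 (0.24 ± 0.22) and Id2 (-0.34 ± 0.35) did not pass. Of 14 WNT antagonists and targets, 5 were higher and 2 lower, shares near the background. Sfrp2, an antagonist like Sfrp1, rose above a background level in adult tissue (10.58, 11.55 and 10.89 in the CRISPR-Ptch1 tumours, against 4.08 to 4.82 in the adult cerebella), and Nkd1, an inhibitor that WNT induces, differed by 2.95 ± 0.31. The WNT targets Axin2 (0.37 ± 0.15, a call lost whichever of the 7 arrays was left out), Lef1 (-0.34 ± 0.21) and Lgr5 (-0.14 ± 0.32) showed small differences or none that passed, and the lower ones were Lgr6 (-1.49 ± 0.15), a receptor of R-spondins, and Notum (-0.47 ± 0.15), which inactivates WNT proteins. In the insulin-like growth factor group, 3 of 12 were higher and 4 lower, shares near the background. Irs1, the adaptor of the receptor in granule precursors, was at 13.01, 12.62 and 13.27 in the CRISPR-Ptch1 tumours, against 10.38 to 10.64 in the adult cerebella (2.51 ± 0.22). The receptor Igf1r had 0.36 ± 0.20 and did not pass. It was called higher with the mean of its probe sets (0.574, adjusted p = 0.00058) and with only the 7 arrays (0.355, adjusted p = 0.00773). The binding proteins moved apart, Igfbp2 by 2.06 ± 0.32, Igfbp4 by 1.43 ± 0.32 and Igfbp6 by -2.67 ± 0.21.

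Genes of electrical and synaptic function were lower as groups, beside a background of 21.1% lower genes. Of 21 voltage-gated channel genes 17 were lower (median -2.76), of 24 synaptic vesicle and release genes 22 (median -2.33), of 14 postsynaptic genes 11 (median -1.98), of 14 GABA and glycine receptor and chloride transporter genes 11 (median -1.65) and of 14 glutamate receptors 6 (median -0.48). The median differences of EP 1, EP 2 and TF were -2.81, -1.84 and -3.30 for the channels, -2.29, -1.67 and -2.94 for vesicle genes and -2.17, -1.38 and -2.14 for postsynaptic genes, so that EP 2 lay nearest to adult tissue in each list. A potassium channel of the axon, Kcna1, showed it at 8.37, 9.51 and 7.46 in the CRISPR-Ptch1 tumours, against 12.26, 12.01, 12.25 and 12.14 in the adult cerebella. Slc12a5, the chloride exporter KCC2 that makes GABA inhibitory in mature neurons, was at 8.58, 10.10 and 7.41 in the CRISPR-Ptch1 tumours, against 12.55, 12.50, 12.59 and 12.63 in the adult cerebella. It was 14.6-fold lower (-3.87 ± 0.63), while its counterpart of immature neurons, the importer Slc12a2, had -0.27 ± 0.15 and did not pass. The result for Slc12a2 depends on the probe set. It was called lower with the mean of its probe sets (-1.01, adjusted p = 0.000167) and with the most variable one (-1.26, adjusted p = 0.0045). Markers of mature granule neurons, Purkinje cells and interneurons were lower in the same tumours (values below), and their part in these differences was not tested.

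Subunits within 1 receptor family had unlike values. Of the GABA receptor α subunits, Gabra2 (-2.59 ± 0.41) and Gabra4 (-1.24 ± 0.41) were lower, while Gabra3 (-0.21 ± 0.39) and Gabra5 (-0.25 ± 0.19, at background) did not pass. Among glutamate receptors, Grin2c, the NMDA receptor subunit of mature granule cells, was at 5.75, 7.35 and 5.14 in the CRISPR-Ptch1 tumours, against 9.85, 9.80, 9.93 and 9.89 in the adult cerebella (-3.79 ± 0.34). Grin2b, the subunit of immature ones, had 0.82 ± 0.70, with the EP tumours above the adult range and TF below it (7.77, 8.05 and 5.94, against 6.35 to 6.54). The AMPA receptor subunits Gria1 (-2.15 ± 0.57), Gria3 (-1.41 ± 0.43) and Gria4 (-1.55 ± 0.28) were lower, and Gria2, which makes the channel impermeable to calcium, had -0.64 ± 0.35. Against their lists, 4 genes with a called difference above 2 were higher: besides Scn3a, Cacna2d1, an auxiliary calcium channel subunit (2.13 ± 0.19), Slc17a6, the vesicular glutamate transporter VGLUT2 (2.36 ± 0.35), and the fusion protein Stx1a (2.21 ± 0.25). The postsynaptic scaffold gene Shank1 was higher by less (0.33 ± 0.11). VGLUT2 precedes VGLUT1 (Slc17a7, -1.79 ± 0.20) in maturing granule cells.

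Of 22 genes of the neuronal cytoskeleton 8 were higher and 9 lower. Dcx, the microtubule protein of migrating young neurons, had 11.88, 11.87 and 11.30 in the CRISPR-Ptch1 tumours, against 6.18, 7.11, 6.48 and 6.18 in the adult cerebella, a 36.6-fold difference. Tubb2b (1.45 ± 0.20), Tubb3 (0.98 ± 0.23), Dclk1 (1.32 ± 0.18), Dpysl3 (2.72 ± 0.26) and Dpysl5 (1.76 ± 0.22), also typical of young neurons, were higher, although probe sets of Dclk1 ran both ways (1 of them at -2.40), and the neurofilament genes Nefm (-3.63 ± 0.54) and Nefh (-4.89 ± 0.49) and the axonal protein tau (Mapt, -1.58 ± 0.55) were lower. Map2, a dendritic protein, did not pass (0.22 ± 0.15). Of 24 RNA-binding proteins of neural cells 8 were higher and 7 lower, shares near the background. Ptbp1, the splicing repressor of progenitors, was at 11.27, 10.78 and 11.76 in the CRISPR-Ptch1 tumours, against 8.31 to 8.64 in the adult cerebella (2.81 ± 0.17), though a dimmer probe set showed -0.01, and Msi1, a translational regulator of neural stem cells, differed by 2.20 ± 0.23. The splicing factors of mature neurons Rbfox1 (-2.42 ± 0.39) and Mbnl2 (-1.57 ± 0.27) were lower, as were Celf4 (-1.62 ± 0.32), Khdrbs2 (-1.45 ± 0.24), Mbnl1 (-0.61 ± 0.16) and Msi2 (-0.52 ± 0.16). Rbfox3, which encodes the neuronal nuclear antigen NeuN, was lower (-0.66 ± 0.25, a call lost without EP 1 or without cerebellum 1, 2 or 3), with 12.58, 12.88 and 12.91 in the tumours, against 13.40 to 13.48 in the adult cerebella.

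Of 27 axon guidance genes, 9 were higher, 10 lower and 8 did not pass. Dcc, the attractive netrin receptor, was at 11.998, 11.82 and 12.28 in the CRISPR-Ptch1 tumours, against 6.11, 6.81, 6.44 and 6.14 in the adult cerebella, a 50.5-fold difference. The repulsive netrin receptors ran the opposite way: Unc5a (-0.63 ± 0.17), Unc5b (-1.67 ± 0.30), Unc5c (-1.92 ± 0.39) and Unc5d (-1.99 ± 0.53) were all lower. Robo1 (2.60 ± 0.31) and Robo2 (1.77 ± 0.55), receptors of SLIT proteins, were higher, as was the ligand Slit1 (0.44 ± 0.15). Plxnb2, a semaphorin receptor of dividing granule precursors, was higher by 1.46 ± 0.24, as were the semaphorin Sema6a (1.82 ± 0.30), the neuropilins Nrp1 (0.91 ± 0.36) and Nrp2 (0.66 ± 0.21) and the ephrin Efnb1 (0.63 ± 0.18), and the ligand Sema3a was lower (-2.74 ± 0.34). Dab1, the adaptor that relays the reelin signal, was at 7.46, 7.64 and 7.51 in the CRISPR-Ptch1 tumours, against 9.80 to 9.98 in the adult cerebella (-2.37 ± 0.25).

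Most glycolysis genes were lower, 14 of 19 (median -1.35), with Hk2 and Ldha the 2 higher ones. Hk2, the hexokinase that SHH induces in granule precursors, had 12.32, 11.67 and 11.82 in the CRISPR-Ptch1 tumours, against 8.27, 8.45, 8.58 and 8.63 in the adult cerebella, an 11-fold difference. The most changed was Eno2, neuron-specific enolase, at 7.95, 9.39 and 6.07 in the CRISPR-Ptch1 tumours, against 11.94, 11.81, 11.83 and 11.92 in the adult cerebella (-4.07 ± 0.62), followed by the phosphofructokinase Pfkp (-2.83 ± 0.39) and aldolase C (Aldoc, -2.38 ± 0.71), an enzyme of astrocytes and Purkinje cells. Pkm was lower (-0.80 ± 0.13). Of 22 genes of oxidative phosphorylation 17 were lower, by small amounts (median -0.53), with Ndufs1 of complex I the most changed (-0.89 ± 0.14).

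Of 15 serine, one-carbon and polyamine genes 11 were higher (median 1.48): Phgdh (1.53 ± 0.20) and Psat1 (1.98 ± 0.19), the first enzymes of serine synthesis, the mitochondrial folate enzymes Shmt2 (2.29 ± 0.24) and Aldh1l2 (2.01 ± 0.27), and Odc1, the first enzyme of polyamine synthesis, which was at 12.43, 12.54 and 12.76 in the CRISPR-Ptch1 tumours, against 10.51 to 10.68 in the adult cerebella (1.99 ± 0.11). For Shmt2, 1 of the dimmer probe sets showed -0.06. The cystine transporter Slc7a11 was the lower one (-1.54 ± 0.28). Of 18 ribosome biogenesis genes 17 were higher (median 1.46), Nhp2, a protein of small nucleolar particles, by 2.29 ± 0.19. In cholesterol synthesis 6 of 19 were higher and 4 lower, shares near the background, and the rate-setting enzyme Sqle had 0.66 ± 0.30. Cyp46a1, the neuronal enzyme that removes cholesterol from the brain, was lower (-2.29 ± 0.30), as were Sc5d (-1.49 ± 0.24), Hmgcs1 (-0.70 ± 0.15) and Pmvk (-0.39 ± 0.10), enzymes of the synthesis itself. The primary cilium, through which the SHH signal passes, gave 7 higher and 3 lower of 20, also shares near the background. Gpr161, the ciliary receptor that dampens the pathway, was at 8.63, 8.65 and 8.57 in the CRISPR-Ptch1 tumours, against 6.42 to 6.86 in the adult cerebella (1.95 ± 0.23), Ift140, a subunit of ciliary transport, differed by 1.57 ± 0.12, and Bbs4, of the BBSome, by -1.12 ± 0.17. The other lower genes were Kif3a (-0.67 ± 0.18), a motor of ciliary transport, and Bbs1 (-0.66 ± 0.24).

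Marker lists of the other cerebellar cell types describe the tissues by RNA level only, and cell numbers were not measured. Mature granule neuron markers were lower in 12 of 13 (median -2.68), Purkinje cell markers in 9 of 10 (-4.02), inhibitory interneuron markers in 9 of 9 (-3.07) and myelin genes in 12 of 12 (-3.20). The mean level of the Purkinje cell markers was 9.11, 10.48 and 8.38 in the CRISPR-Ptch1 tumours, against 12.72 to 12.85 in the adult cerebella, and that of the mature granule neuron markers 9.52, 10.67 and 8.48, against 12.16 to 12.22. Interneuron markers averaged 6.51, 7.22 and 6.05 in the tumours, against 9.56 to 9.66, and myelin genes 7.80, 7.91 and 6.56, against 10.65 to 10.92. All 4 lists were lowest in TF. The 1 Purkinje cell marker that was higher was Foxp2, given above. Cnp, a myelin enzyme, stood at 11.47, 12.01 and 10.41 in the CRISPR-Ptch1 tumours, against 13.75, 13.53, 13.58 and 13.66 in the adult cerebella, and Slc1a6, the glutamate transporter of Purkinje cells, at 7.60, 9.001 and 7.31 in the CRISPR-Ptch1 tumours, against 11.84, 11.94, 12.07 and 11.93 in the adult cerebella. Slc6a5, the glycine transporter of Golgi and Lugaro cells, was closer to background, at 4.50, 5.20 and 4.65 in the CRISPR-Ptch1 tumours, against 7.99, 7.80, 7.90 and 7.71 in the adult cerebella. Oligodendrocyte precursor genes did not follow the myelin genes: 4 of 10 were higher and 1 lower. Pdgfra, the receptor that marks these precursors and also meningeal fibroblasts, was at 12.92, 12.36 and 12.32 in the CRISPR-Ptch1 tumours, against 9.01, 9.08, 8.99 and 9.11 in the adult cerebella (3.49 ± 0.41). Olig2, which dividing granule precursors of SHH tumours also express, differed by 1.67 ± 0.36, Cspg4 (NG2) by 0.87 ± 0.21, and Sox10, common to all cells of the lineage, had -0.10 ± 0.19. The lower one was Enpp6 (-1.18 ± 0.34), a gene of newly formed oligodendrocytes.

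Astrocyte and Bergmann glia genes were lower in 8 of 13 (median -1.14). Gdf10, a Bergmann glia marker, was at 8.57, 8.48 and 8.004 in the CRISPR-Ptch1 tumours, against 12.01 to 12.09 in the adult cerebella (-3.71 ± 0.41) and the glutamate transporter Slc1a2 differed by -1.76 ± 0.22, whereas Gfap had 0.90 ± 0.68 and the radial glia protein Fabp7 was higher by 1.18 ± 0.44, a call lost whichever of the EP tumours or cerebella was left out (adjusted p = 0.0505 to 0.0905). Of 14 vessel genes 9 did not pass. Those lower included Slco1a4 (-1.42 ± 0.25) and Slc2a1 (-1.35 ± 0.36), transporters of the blood-brain barrier, and the endothelial markers Cldn5 (-0.52 ± 0.34) and Cdh5 (-0.11 ± 0.41) did not pass. Of 21 collagens, laminins and other matrix genes 10 were higher and none lower. Col11a1, a fibrillar collagen, was at 8.25, 7.68 and 9.03 in the CRISPR-Ptch1 tumours, against 4.39 to 4.82 in the adult cerebella (3.67 ± 0.27), the proteoglycan Ncan differed by 2.77 ± 0.23 and the basement membrane collagen Col4a1 by 2.05 ± 0.46. Meningeal (7 of 11) and choroid plexus (7 of 9) genes mostly did not pass, the collagen Col3a1 (1.65 ± 0.54) being 1 of the 2 meningeal genes that were higher, and no lymphocyte gene of 8 passed, Cd3e (5.65 to 5.67 in the tumours, against 5.67 to 6.001) and Cd8a (5.57 to 5.80, against 5.82 to 6.10) among them.

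Macrophage and microglia genes were higher in 12 of 16 (median 2.33). Lyz2, a lysozyme of phagocytes, was at 11.45, 11.86 and 10.98 in the CRISPR-Ptch1 tumours, against 7.63, 7.38, 7.66 and 7.36 in the adult cerebella (3.92 ± 0.37) and Ptprc (CD45) differed by 2.58 ± 0.35. Tmem119 (0.10 ± 0.20) and P2ry12 (1.09 ± 0.52), both markers of homeostatic microglia, did not pass. For P2ry12 the tumours were spread over 9.23, 8.51 and 6.78, with TF below the adult range of 7.03 to 7.17. Antigen presentation genes were higher in 8 of 13, none lower. The class II gene H2-Aa was at 7.57, 9.78 and 8.58 in the CRISPR-Ptch1 tumours, against 6.57, 6.73, 6.28 and 6.33 in the adult cerebella (2.17 ± 0.58), highest in EP 2, and the immunoproteasome subunit Psmb8 differed by 1.55 ± 0.16, whereas the class I genes H2-K1 (-0.48 ± 0.37) and H2-D1 (-0.57 ± 0.41) did not pass. These near-identical genes share probes, and other probe sets ran the opposite way, at 0.92 for H2-K1 and at 2.31 for a dim one of H2-D1, so their direction is uncertain. Of 12 chemokine genes 6 were higher and 1 lower. Cxcl10, a chemoattractant induced by interferon, was at 8.82, 9.39 and 8.45 in the CRISPR-Ptch1 tumours, against 5.08, 5.02, 5.13 and 4.79 in the adult cerebella (3.88 ± 0.50), Ccl3 differed by 2.66 ± 0.51 and Ccl2 by 1.85 ± 0.30, and Cxcl12, the ligand of CXCR4, had 0.03 ± 0.35, with a dimmer probe set at -2.11. The lower one was Cx3cl1 (-0.56 ± 0.12), the neuronal ligand of the microglial receptor CX3CR1. Among 15 immediate early genes 4 were higher and 4 lower, shares near the background. Egr2 was at 7.10, 7.10 and 7.25 in the CRISPR-Ptch1 tumours, against 3.14 to 3.46 in the adult cerebella (3.91 ± 0.25). Fosl2 differed by 2.71 ± 0.29, Ier2 by 0.87 ± 0.17 and Jun by 0.73 ± 0.24, while the activity-induced Arc (-1.47 ± 0.18) and Egr1 (-1.18 ± 0.32) were lower.

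**Figure D3:**
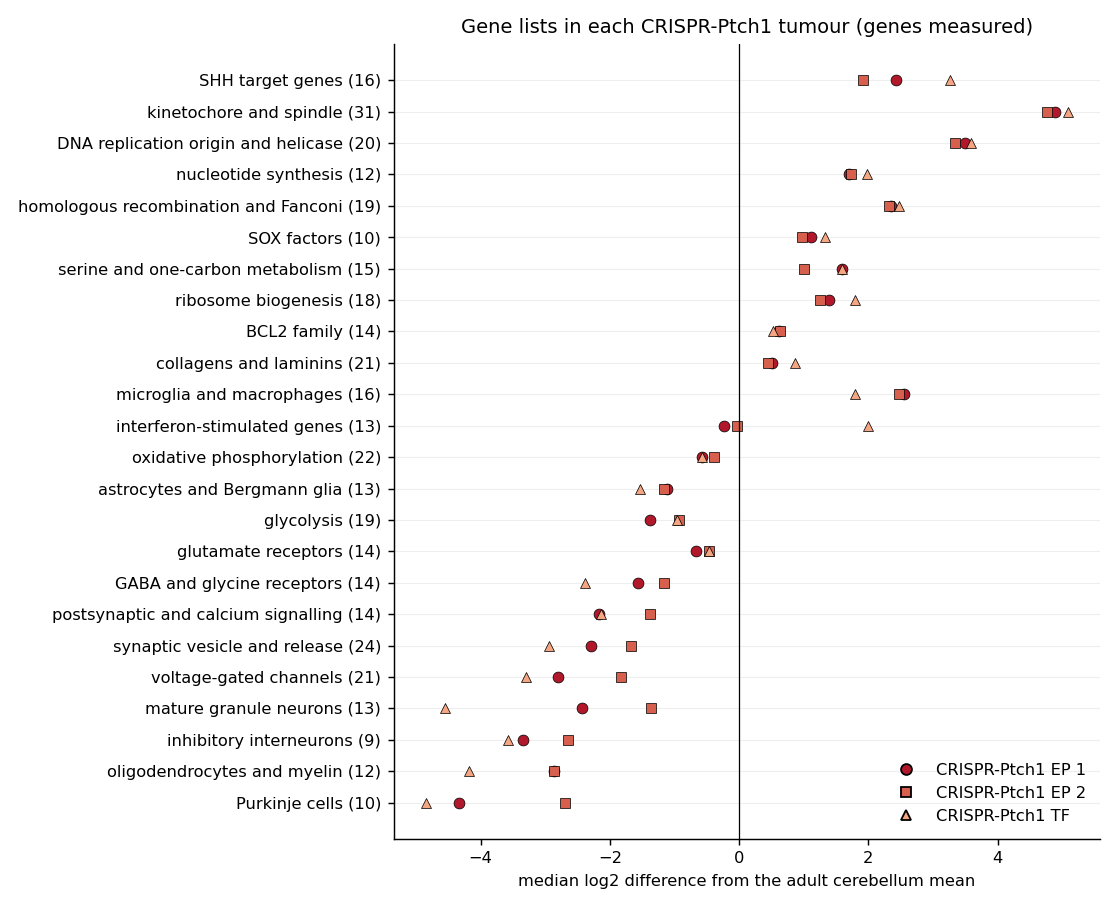
Median log2 difference from the adult mean over the measured genes of 24 lists (rows), for EP tumour 1 (circle), EP tumour 2 (square) and the TF tumour (triangle). The vertical line at 0 is the adult mean and the horizontal axis is in log2 units. For mature granule neurons, Purkinje cells, interneurons, channels and vesicle genes EP 2 lies nearest to 0 and TF farthest, and the interferon list is above 0 in TF alone.

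The 3 tumours were less alike than the 4 cerebella. Over all genes the median SD was 0.165 among the tumours, against 0.0932 among the adult cerebella, and the tumour range exceeded the adult range in 67.7% of genes. EP 2 was the tumour nearest to the adult mean in 61.4% of the genes called lower and in 58.3% of those called higher, and TF was the farthest in 62% and 58.9%. A model that gave the TF tumour a group of its own called 453 genes (2.49%) different between the EP and TF tumours, 302 (1.66%) higher and 151 (0.83%) lower in EP. The TF group holds 1 array, whose spread is assumed to be that of the other groups. From here to the genes with the smallest adjusted p between EP and TF, differences given with an SE are EP minus TF.

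Olig3, a factor of the rhombic lip, from which granule precursors come, was at 10.73, 11.07 and 4.26 in the CRISPR-Ptch1 tumours, against 3.85, 4.25, 4.18 and 4.20 in the adult cerebella. Both EP tumours were far above, and TF was near, the background level of the adult tissue (6.64 ± 0.83). Neurod1 (1.90 ± 0.23) and the transcription factor Zic4 (1.31 ± 0.34) were also higher in EP, as were the neuronal calcium kinase Camk4 (3.50 ± 0.52), the GABA receptor subunit Gabrd (2.19 ± 0.49) and the adhesion protein Cntn2 (2.58 ± 0.56), which is made by young granule cells. Lcn2, an acute-phase protein of reactive astrocytes and neutrophils, was at 11.24, 10.87 and 5.15 in the CRISPR-Ptch1 tumours, against 4.49, 4.02, 4.52 and 4.61 in the adult cerebella, high in both EP tumours only. Cx3cr1, a microglial receptor, was higher in EP by 1.38 ± 0.36.

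Interferon-stimulated genes separated TF from both EP tumours. Over the 13 measured, the median difference from the adult mean was -0.24, -0.04 and 1.999 in EP 1, EP 2 and TF, and 6 were lower in EP than in TF by the test, beside 0.83% of all genes. Usp18, which removes the ubiquitin-like protein ISG15, was at 4.91, 4.995 and 8.65 in the CRISPR-Ptch1 tumours, against 5.32, 5.47, 5.56 and 5.66 in the adult cerebella. Rtp4 was at 6.03, 6.60 and 9.27 in the CRISPR-Ptch1 tumours, against 6.49, 6.61, 6.70 and 6.74 in the adult cerebella. In both, TF lay above every other array shown while the EP tumours lay within or below the adult range. The antiviral genes Oasl2 (-2.76 ± 0.73), Rsad2 (-2.03 ± 0.53), Mx1 (-1.08 ± 0.22) and Bst2 (-1.89 ± 0.44) followed. Stat2, which carries the interferon signal, was low in all 3 tumours (5.58, 5.78 and 5.52, against 6.85 to 7.25), and Ifit2 was high in all 3 (9.52, 8.56 and 10.08, against 6.44 to 6.51). Dll3 (-3.95 ± 0.73), Pdlim3 (-3.72 ± 0.70), Nkd1 (-1.87 ± 0.30) and the Notch effector Hes1 (-1.99 ± 0.42) were lower in EP too. Transthyretin (Ttr), the main secreted protein of choroid plexus, was at 7.92, 6.94 and 14.23 in the CRISPR-Ptch1 tumours, against 8.37 to 9.60 in the adult cerebella, a spread that its difference between EP and TF did not pass (-6.79 ± 3.42, adjusted p = 0.414), and the choroid plexus channel Aqp1 was lower in EP (-1.89 ± 0.38).

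The 12 genes with the widest spread over the 3 tumours, among genes whose 4 adult values span less than 1, ran in more than 1 way. Mroh2a (11.50, 10.72 and 7.09 in the tumours, against 6.08 to 6.46) and Shisa3 (8.51, 8.61 and 4.33, against 3.88 to 4.06), an inhibitor of WNT and FGF receptors, were high in both EP tumours, as Olig3 and Lcn2 were. Samd9l (5.80, 6.09 and 10.55 in the tumours, against 6.69 to 6.84), Mndal (4.56, 5.88 and 10.91, against 6.15 to 6.59) and Gm20559 (5.81, 5.75 and 10.13, against 5.45 to 5.77) were high in TF alone. The ligand gene Bmp5 (8.68, 10.26 and 5.54, against 8.52 to 8.98) and 1700048O20Rik (8.15, 8.94 and 4.47, against 6.31 to 6.69) were lowest in TF.

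Of the 12 genes with the smallest adjusted p between EP and TF, several are of unknown or varied function. Higher in EP were Cbr2 (2.15 ± 0.20), Myt1 (1.75 ± 0.20), Neurod1 (1.90 ± 0.23), Rag1 (2.44 ± 0.27) and Tmem87a (2.53 ± 0.22), and lower in EP were 2810414N06Rik (-2.27 ± 0.23), AA388235 (-3.19 ± 0.32), Cyp11a1 (-2.31 ± 0.29), Gdf9 (-2.02 ± 0.25), Slfn8 (-2.49 ± 0.28), Vps52 (-3.22 ± 0.31) and Zfp874a (-2.98 ± 0.25). Vps52, a subunit of a vesicle tethering complex, was at 5.23, 6.13 and 8.90 in the CRISPR-Ptch1 tumours, against 8.54, 8.48, 8.45 and 8.64 in the adult cerebella, although its second probe set differed by 0.10 between tumours and adult tissue. Chromosomal sex also differed: EP tumour 2 showed Xist, the RNA of the inactive X chromosome, at 13.19, and EP 1 and TF at 5.92 and 5.87, while Eif2s3y of the Y chromosome was at 9.74, 3.59 and 9.13 in the tumours, against 9.05 to 9.69 in the adult cerebella. The Y-linked genes Kdm5d (8.23, 3.41 and 8.75, against 7.67 to 7.85) and Uty (7.56, 2.98 and 8.05, against 6.87 to 7.24) gave the same pattern, and Tsix, antisense to Xist, was at background in all 7 arrays (3.29 to 3.40 in the tumours, against 3.16 to 3.63).

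**Figure D4:**
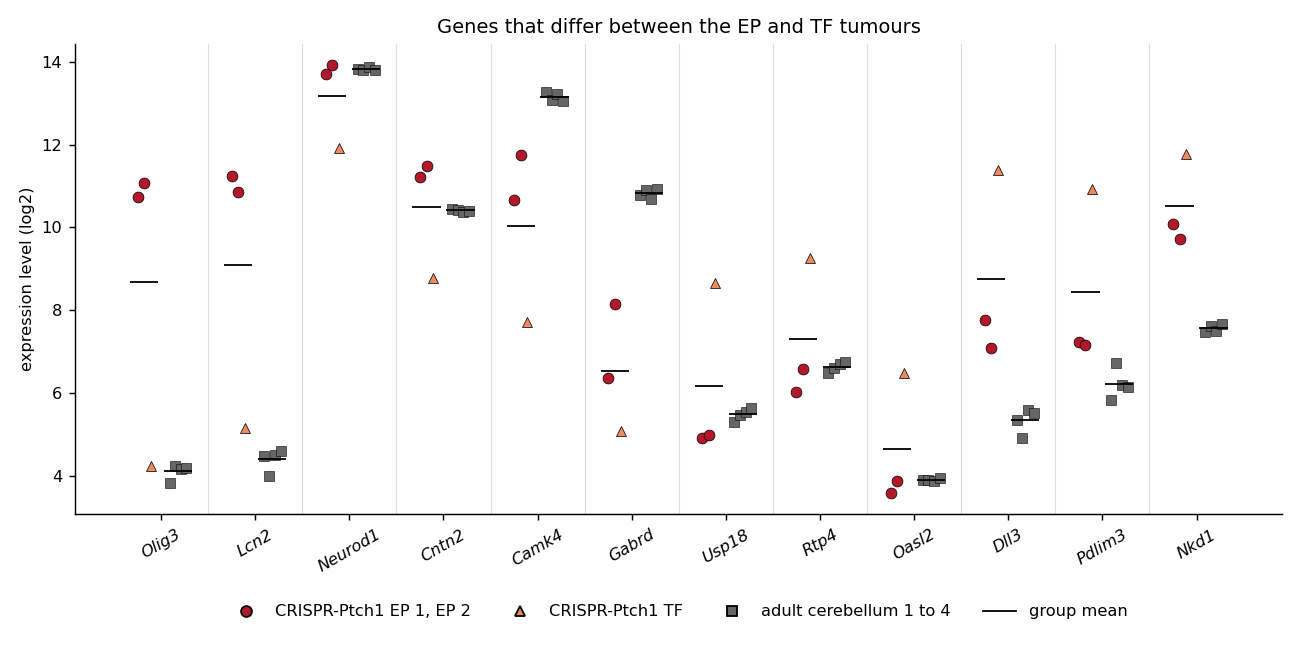
Levels (log2, vertical axis) of 12 genes in the 3 CRISPR-Ptch1 tumours (left of each pair, circles for EP 1 and EP 2, triangle for TF) and the 4 adult cerebella (right, grey squares). Olig3, Lcn2, Neurod1, Cntn2, Camk4 and Gabrd are higher in the EP tumours, and Usp18, Rtp4, Oasl2, Dll3, Pdlim3 and Nkd1 are higher in the TF tumour.

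The TF tumour had lower values than both EP tumours for genes of chromosome 13. For each array and chromosome, the median difference from the adult mean over genes with a mean level above 8 was taken relative to that over all such genes, a level chosen after the data had been seen, and the values are a description with no test. On chromosome 13 (283 genes) it was -0.002, -0.015 and -0.534 in EP 1, EP 2 and TF, against -0.018 to 0.008 in the adult cerebella. The size depends on that level: TF was at -0.436 and -0.52 with a level above 6 and above 9, and at only -0.123 over all 702 genes of the chromosome, dim ones included, where EP 1 and EP 2 were at -0.005 and -0.014. Nor is such a shift confined to TF, since the 4 GTML tumours spanned -0.482 to -0.03 on chromosome 13 at the level above 8, and the other chromosomes reached 0.444 in GTML and 0.427 in Ptch1+/- tumours. On the other chromosomes TF lay within -0.11 to 0.15, and the EP tumours within -0.14 to 0.13. Gene by gene, the EP mean exceeded TF in 247 of 283 chromosome 13 genes (87.3%), by a median of 0.52, and in 35.3% to 47.8% of genes on each of the others. The difference was not even along the chromosome. In 8 equal groups of genes by position, the median of EP minus TF was 0.08, 0.17, 0.52, 0.58, 0.55, 0.66, 0.66 and 0.62, and Ptch1 lies in the fifth group. Of the EP and TF calls among these genes, 20 lay on chromosome 13 and 20 of them were higher in EP. These are 7.07% of the 283 genes there, beside 0.26% to 3.32% called higher in EP on each of the other chromosomes. Ptch1 itself did not follow, at 13.07 in TF. Copy number was not measured.

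**Figure D5:**
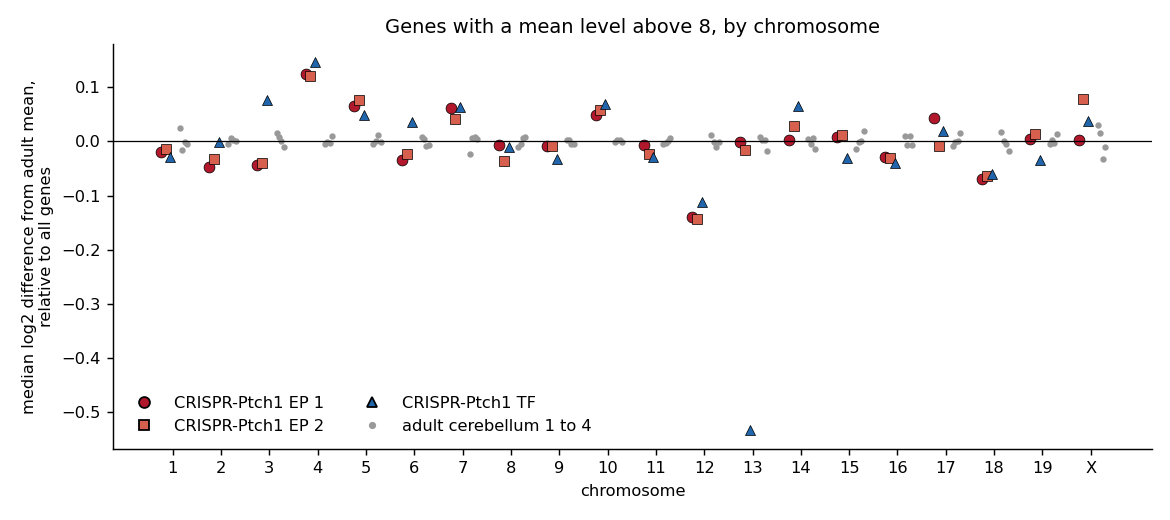
Median log2 difference from the adult mean over genes with a mean level above 8 on each chromosome (horizontal axis), relative to all such genes, for the 3 CRISPR-Ptch1 tumours (coloured: circle EP 1, square EP 2, triangle TF) and the 4 adult cerebella (grey). The TF tumour is at -0.53 on chromosome 13, and every other point of the 7 arrays lies between -0.14 and 0.15.

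Direct contrasts set the CRISPR-Ptch1 tumours against the other samples. They share the CRISPR-Ptch1 arrays, so each is given with its own values. Against MERP tumours 13.3% of all genes differed, 8.2% higher and 5.15% lower in the CRISPR-Ptch1 tumours. Against tumours of Ptch1+/- mice 36.8% differed, 28.5% higher and 8.33% lower, and against GNPs 13.7%, 5.79% higher and 7.95% lower. The gap between 3′ and 5′ control probe sets, 0.191 to 0.234 in the CRISPR-Ptch1 tumours, was 0.988 to 1.53 in Ptch1+/- tumours, 0.402 to 1.71 in MERP tumours and 0.306 to 0.53 in GNPs, and the median gene level averaged 7.52 in the CRISPR-Ptch1 tumours, against 7.04 in Ptch1+/- tumours. Their part in these differences was not tested. Of the 16 SHH targets, 1 was higher and 4 lower than in MERP tumours, 5 higher and 5 lower than in Ptch1+/- tumours, and 2 higher and 0 lower than in GNPs. Ptch1 differed by 1.13 ± 0.21 from Ptch1+/- tumours (adjusted p = 0.000278), by -0.07 ± 0.20 from MERP tumours (adjusted p = 0.869) and by 1.16 ± 0.23 from GNPs (adjusted p = 0.001). These values come from its brightest probe set, whose call against adult tissue was lost with other choices of probe set. The other probe sets of Ptch1 were not tested in these contrasts. Gli1 was lower than in both MERP tumours (-0.86 ± 0.23) and Ptch1+/- tumours (-0.84 ± 0.24). Hey1 was higher than in MERP tumours (0.73 ± 0.18), Ptch1+/- tumours (0.64 ± 0.19) and GNPs (0.99 ± 0.20), as were Cxcl10 (2.17 ± 0.48, 1.56 ± 0.50 and 3.31 ± 0.54) and Psmb8 (1.02 ± 0.15, 1.92 ± 0.16 and 1.57 ± 0.17). Mycn passed in none of the 3 contrasts (0.18 ± 0.20, 0.21 ± 0.21 and 0.59 ± 0.23).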

How the data were processed

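Total RNA of 23 mouse tissue or cell samples was read by the authors on Affymetrix expression arrays of the mouse genome, and they deposited log2 expression values made by robust multi-array averaging (RMA) in Affymetrix Expression Console 1.3.1, per the submitters' notes. RMA subtracts background, forces all arrays to 1 distribution and summarises probes, so a shift of the whole transcriptome is not visible. These deposited log2 values, 45101 probe sets per array with none missing, were used without further scaling.

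The annotation gives 1 gene symbol for 34958 probe sets, several for 932 and none for 9211. Symbols were updated through Entrez numbers against RefSeq GRCm38.p6 (34754 matched), and each of 18194 genes was read from its brightest probe set (by the mean of all 23 arrays). Levels of different probe sets were not compared.

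Groups came from the sample titles. The main test was a moderated linear model (limma 3.58.1, R 4.3.3) of all 23 arrays in 6 groups, with the EP and TF tumours as 1 group and no covariate, and Benjamini-Hochberg adjustment over all genes at 0.05. The contrast of EP with TF came from the same model with TF as a group of its own. The limma step was tested on simulated data. Python 3.11.15 with numpy 2.4.6, pandas 2.3.3, scipy 1.17.1 and matplotlib 3.10.9 made the tables and plots. Promoters are the 250 bases before RefSeq transcription starts, searched on both strands.

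The genes named are the 12 largest differences in each direction among called genes without overlap, up to 6 called members of each list with the largest differences, members that went against their list, members that did not pass where their role is described, the listed pairs, the genes that the study names, the 12 with the widest tumour range where the adult values span less than 1, and the 12 with the smallest adjusted p between EP and TF. The samples, gene lists and tests were chosen with earlier results of these data known. A few members of no such rank were added after their values were seen. The alternatives were other array scalings, other choices of probe set, a filter on dim genes (above the array median in at least 3 arrays), array weights, a robust trend, only the 7 arrays, a 2-fold minimum, EP or TF alone, a replicate block, and each array left out in turn. Some genes of the lists are not reported here.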

Additional observations from a re-analysis of the deposited data

Results flagged for a closer look

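Of the 328 genes named in the text, 47 differed between the EP tumours and the TF tumour in the test of that difference (limma, adjusted p under 0.05 over all genes). The TF group is 1 array, from another genotype, route and age at delivery, and these cannot be told apart. Higher in EP (EP minus TF, log2) were Olig3 (6.64), Lcn2 (5.901), Shisa3 (4.237), 1700048O20Rik (4.073), Mroh2a (4.018), Camk4 (3.5), Eomes (2.698), Cntn2 (2.579), Tmem87a (2.528), Rag1 (2.436), Rgs8 (2.419), Rbfox1 (2.262), Gabrd (2.185), Cbr2 (2.153), Crtam (1.992), Gabra2 (1.958), Neurod1 (1.901), Myt1 (1.752), Lgr5 (1.684), Celf4 (1.656), Cdon (1.646), Dpysl3 (1.463), Actl6b (1.394), Cx3cr1 (1.384), Zic4 (1.314) and Ss18l1 (0.984). Lower in EP were Samd9l (-4.608), Gm20559 (-4.355), Dll3 (-3.947), Pdlim3 (-3.717), Usp18 (-3.699), Vps52 (-3.216), AA388235 (-3.192), Zfp874a (-2.984), Rtp4 (-2.963), Oasl2 (-2.76), Slfn8 (-2.491), Cyp11a1 (-2.31), 2810414N06Rik (-2.27), Rsad2 (-2.032), Gdf9 (-2.019), Hes1 (-1.985), Aqp1 (-1.894), Bst2 (-1.887), Nkd1 (-1.871), Mx1 (-1.082) and Kif3a (-0.921). The interferon-stimulated genes Usp18, Rtp4, Oasl2, Rsad2, Mx1 and Bst2 are among those lower in EP, and neuronal genes such as Rgs8, Camk4 and Gabrd among those higher in EP. Microglial Cx3cr1 was higher in EP, and Aqp1 of choroid plexus was lower, so markers of other cell types differed between the tumours as well, and their part was not tested.

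For 14 genes, 1 adult cerebellum stood apart from the other 3, in that its gap to the nearest made up most of the range of the 4. Chance marks about 1 in 20 groups of 4 in this way, and it marked 14 of the 328 named here. The lone value lay above the other cerebella for Gria3 10.921 in cerebellum 1, Irs1 10.635 in cerebellum 1 and Lgr6 6.532 in cerebellum 1. It lay below them for Cdk6 4.759 in cerebellum 4, Dpf3 7.704 in cerebellum 1, Fabp7 11.973 in cerebellum 1, Gdf10 12.008 in cerebellum 3, Jun 10.079 in cerebellum 2, Pax6 10.364 in cerebellum 1, Perp 7.515 in cerebellum 3, Rbfox3 13.4 in cerebellum 4, Samd9l 6.686 in cerebellum 2, Tubb5 11.833 in cerebellum 1 and Zfp874a 6.996 in cerebellum 3. For each of these genes every tumour lay outside the range of the adult cerebella, for Samd9l with both EP tumours below it and TF above it.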

How the results depend on the processing

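The total of 8636 genes called stayed between 7166 and 10431 in all alternatives but 2, the array weights (13148 called, 6923 higher and 6225 lower, in a fit whose weights did not fully converge) and the demand for at least a 2-fold difference (4245 called, 2319 higher and 1926 lower). Leaving out 1 array in turn gave 7742 to 8120. Centring each array on the median of its genes, which differed by 0.168 between tumours and adult tissue, gave 3787 higher and 4978 lower genes, so that 43.2% rather than 55.6% of the calls were higher, and the direction of differences below about that size depends on the scaling. Of 57 list counts of at least 4 members, 55 stayed within 1.5 times under that centring and all 57 under the other scalings, whereas 18 moved further with the 2-fold demand, 11 with TF alone, 3 with array weights, 3 with the most variable probe set, 2 with only the 7 arrays, 2 with the block and 1 without EP 2. The 453 calls between EP and TF became 3978 with only the 7 arrays, 412 after quantile normalization, 414 with a robust trend, and 383 or 99 without EP 1 or EP 2. With EP 2 left out the comparison holds 1 array a group, each assumed to vary like the other groups.

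Replicate numbers do not pair these samples: the residuals of EP and adult arrays with the same number correlated at -0.057 and -0.042. A replicate block, which drops the unnumbered TF tumour, gave 7476 calls (4193 higher, 3283 lower).

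Of 328 genes named, 256 were called, and 184 of these kept call and direction in all 19 alternatives other than the 2-fold demand, 68 lost the call in at least 1 and 7 turned in at least 1. Of the 72 that did not pass, 47 passed in at least 1. Leaving out TF took away 21 calls, leaving out EP 1 18 and EP 2 12, and leaving out 1 cerebellum 11 to 13. Smarca2 and Axin2 lost the call whichever of the 7 arrays was left out, Fabp7 and Cdkn1a whichever but TF was, and Tnfrsf10b, Nrp1, Mx1, Bst2, Bbs1, Rbfox3, Dlx1, Cx3cr1, Hey2 and E2f4 with each of at least 3 arrays left out in turn. Without TF the calls lost included Pdlim3 (0.972), Robo2 (1.491), Mapt (-1.08), Id4 (-1.752), Gabra4 (-0.97), Ldha (0.46), Col3a1 (1.312), Bcl2l2 (-1.331), Unc5a (-0.423), Zic2 (-0.428), Jun (0.679), Enpp6 (-0.916), Efnb1 (0.392) and Hes1 (0.383), without EP 1 Slit1 (0.403), Shank1 (0.296), Id3 (0.578), Nrp2 (0.596), Bcl2 (0.399), Msi2 (-0.436), Dpf3 (-0.333) and Vps52 (-1.01), and without EP 2 Bbc3 (0.44). Without the EP tumours, the difference of TF alone turned in 1700048O20Rik (-1.989), 2810414N06Rik (1.199), Cbr2 (-0.816), Cntn2 (-1.641), Cx3cr1 (-0.119), Gdf9 (1.057), Myt1 (-0.685), Tmem87a (-0.134) and Vps52 (0.372). AA388235 turned with EP alone and equally without TF (-0.704), with array weights (-0.517) and with the block (-0.76), and reached 0.942 without EP 2. Samd9l turned with array weights (-0.793). Another choice of probe set turned Anln (-0.087 for the mean of the probe sets, -0.972 for the most variable one), Dclk1 (-0.478 and -2.402), Ptbp2 (-0.046 and -0.807), H2-D1 (0.67 and 2.24), Cxcl12 (-0.687 for the mean), H2-K1 (1.383 for the most variable) and Ss18 (-0.325 for the most variable). Which probe set reads each transcript best was not tested. Transcripts near the lower quartile of an array give only a lower limit to a difference.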
